A study of Homo sapiens with 12 samples.

Results

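The Krüppel-like factors are a family of transcription factors, and 10 of their genes are described here: KLF2, KLF3, KLF4, KLF5, KLF6, KLF9, KLF10, KLF11, KLF13 and KLF15. They were taken by gene symbol from a deposited count table of 51838 genes, and each symbol matched 1 row. RNA was measured by polyA RNA sequencing in HCC70 and MDA-MB-231, 2 human breast cancer cell lines that the labels call basal-like. Each line was treated for 4 h with 100 nM dexamethasone, a synthetic glucocorticoid, or with an equal volume of its ethanol vehicle, and each of the 4 groups had 3 libraries. The stated aim of the study was to find genes regulated by the glucocorticoid receptor and STAT3. Whether the 3 libraries of a group stem from independent cultures is not said in the labels, so a p-value here speaks only of the variation among these libraries, possibly technical. The culture media also differed (RPMI for HCC70, DMEM for the other line), and effects of line and of medium cannot be told apart.

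Krüppel-like factors bind GC-rich and CACCC-type DNA through zinc fingers at their C-terminal end, while the rest of the protein differs between members and recruits activators or repressors. KLF2, KLF4, KLF5 and KLF6 are mostly known as activators, KLF3 recruits the corepressor CtBP, and KLF9, KLF10, KLF11 and KLF13 bind the corepressor SIN3A. In epithelia, KLF4 is known for growth arrest and differentiation and KLF5 for proliferation of basal cells, while KLF9 and KLF15 are known from other tissues as targets of the glucocorticoid receptor.

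Total gene counts ran from 106345287 to 123218973 per library. Levels are CPM, counts per 1000000 counts scaled with TMM factors, given as mean ± SD with n = 3 libraries, and a gene was called where the edgeR quasi-likelihood test gave a Benjamini-Hochberg adjusted p under 0.05 over 28141 genes. FKBP5, a glucocorticoid target used as a check of the treatment, rose 6.2-fold in HCC70 and 19.9-fold in MDA-MB-231. HCC70 vehicle libraries held 8 of 8 basal markers above 1 CPM. MDA-MB-231 vehicle libraries held 5 of 8. Its basal-like label was not matched by the basal keratins KRT5 (0.804 ± 0.44 CPM) and KRT14 (0.238 ± 0.23 CPM). The basal marker EGFR stood at 356 ± 14 CPM there and at 328 ± 8 CPM in HCC70. Of 5 mesenchymal markers, 4 were above 1 CPM in MDA-MB-231 vehicle and 2 in HCC70 vehicle, with VIM at 2212 ± 91 and 145 ± 22 CPM. Of 8 luminal markers, 6 were above 1 CPM in HCC70 vehicle and 3 in MDA-MB-231 vehicle. All 5 epithelial markers were above 1 CPM in both, at unlike levels. In HCC70 and MDA-MB-231 vehicle, CDH1 stood at 517 ± 24 and 2.28 ± 0.45 CPM and EPCAM at 99.5 ± 5.1 and 15.3 ± 1.3 CPM. Of the 5, only KRT18 was higher in MDA-MB-231 vehicle (706 ± 60 CPM, against 435 ± 17 CPM in HCC70). Within each line the libraries also differed in how counts varied with GC content. Over 13642 genes, Spearman's rho between a library's deviation from its line's mean and the GC content of the gene was -0.624 to -0.163 in HCC70 vehicle and 0.384 to 0.523 in HCC70 dexamethasone. In MDA-MB-231 it was 0.701, 0.174 and -0.249 in vehicle libraries 1 to 3 and -0.536, 0.28 and -0.521 in dexamethasone libraries 1 to 3.

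Promoter windows are shown first for the member with the largest rise in both lines, KLF9, and for KLF2 and KLF15, which were lower in HCC70 than in MDA-MB-231 and changed in opposite directions in MDA-MB-231. They come from RefSeq (GRCh38.p14) and hold the bases just before the annotated start, cut where an annotated exon begins, written 5′ to 3′ on the gene's strand. The KLF2 stretch is chr19:16324576-16324816 on the plus strand, the KLF9 stretch chr9:70414658-70414907 on the minus strand and the KLF15 stretch chr3:126357443-126357658 on the minus strand. Capitals mark GGGCGG, a core of GC boxes, and CACCC, each searched on both strands (CCGCCC and GGGTG).
KLF2: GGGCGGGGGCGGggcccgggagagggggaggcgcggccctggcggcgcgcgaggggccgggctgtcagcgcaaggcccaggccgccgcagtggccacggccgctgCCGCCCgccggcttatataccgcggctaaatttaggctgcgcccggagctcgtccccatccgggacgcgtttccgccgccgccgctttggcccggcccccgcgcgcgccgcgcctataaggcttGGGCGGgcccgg
KLF9: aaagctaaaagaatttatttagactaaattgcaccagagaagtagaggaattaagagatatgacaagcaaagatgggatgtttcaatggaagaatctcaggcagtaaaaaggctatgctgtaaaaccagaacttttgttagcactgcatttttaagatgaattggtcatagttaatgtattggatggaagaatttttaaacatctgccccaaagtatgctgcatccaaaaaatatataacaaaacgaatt
KLF15: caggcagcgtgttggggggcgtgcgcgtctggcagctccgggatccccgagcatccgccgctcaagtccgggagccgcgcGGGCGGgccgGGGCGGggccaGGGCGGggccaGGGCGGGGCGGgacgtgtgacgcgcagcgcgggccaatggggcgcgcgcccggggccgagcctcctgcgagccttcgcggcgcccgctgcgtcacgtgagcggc

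In full windows of 250 bases before the start, KLF2 had a GC content of 80% with 4 matches to GGGCGG, and KLF15 80.4% with 6 matches. KLF9 had 32.4% GC and no match to any motif searched. Of the 10 members, 8 had an entry, 10 windows in all, since KLF5 and KLF11 had more than one start. GGGCGG was found in 8 of these 10 windows, against 42.6% of 35116 RefSeq windows of the same length, and CACCC in 4 of 10, against 54.7%. The 8 windows with GGGCGG had 69.2% to 80.4% GC, against a median of 58% over all windows. Windows were not matched for GC content. Some also reach into the member's own exons, by 213 bases at the second KLF5 start and 180 at the first KLF11 start. The hexamer AGAACA (or, on the other strand, TGTTCT), which the glucocorticoid receptor binds in pairs, was in 1 member window, that of the first KLF5 start, against 12.4% of all windows, and the full palindrome, AGAACA followed after NNN by its reverse complement, in 0 windows. TATAAA was found in 1 member window, against 10.7%. These are matches of letters, not sites of binding, and a window of this length leaves out distant enhancers. The sequence just after the RefSeq start was not found in the GENCODE v29 transcripts of KLF9 and KLF13, so those windows rest on the RefSeq start alone.

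Dexamethasone raised 6 of the 10 members in HCC70 and lowered none, where 2.55% of all tested genes rose and 1.4% fell. KLF9 rose most, followed by KLF6, KLF4, KLF5, KLF13 and KLF11. In MDA-MB-231 it raised 7 members, KLF9, KLF15, KLF13, KLF6, KLF5, KLF4 and KLF3, and lowered KLF2, where 6.65% of all tested genes rose and 7.96% fell. The median log2 fold change was 0.36 over 9 members in HCC70 and 0.63 over 10 members in MDA-MB-231, against -0.01 over all tested genes in each line. All 10 members passed the filter on low counts, KLF15 through MDA-MB-231 only, so that no response of KLF15 could be measured in HCC70. Under the strict filter of 5 CPM the member counts stayed the same. Of the 13796 genes tested there, 607 rose and 565 fell in HCC70, and 1963 rose and 1834 fell in MDA-MB-231. The members were chosen with earlier results of these data known, so their counts are a description and not a test. In RNA from whole cultures, a change in every cell and a change in some of the cells cannot be told apart.

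**Figure D1:**
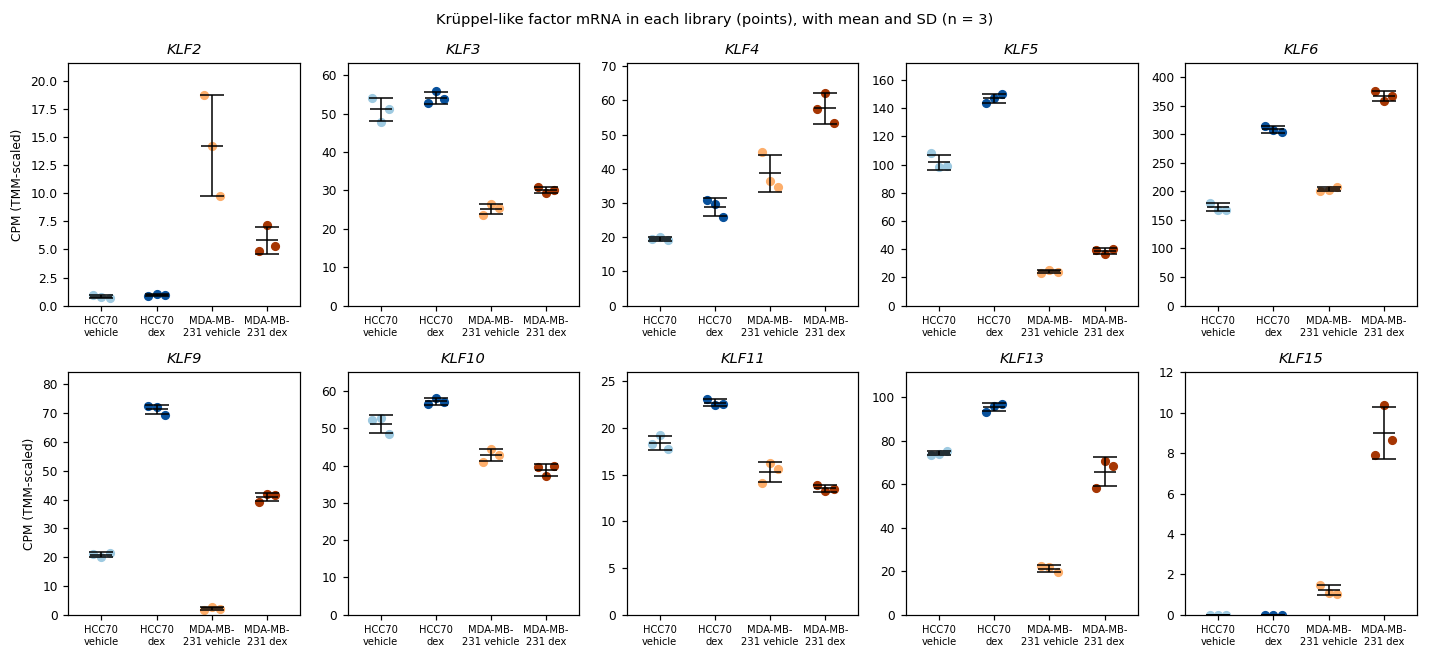
Level of each Krüppel-like factor in each library (points; y axis, TMM-scaled CPM from 0, a scale of its own in each panel; x axis, line and treatment), with mean and SD bars (n = 3). KLF9 rises from 20.8 to 71.3 CPM in HCC70 and from 2.17 to 40.9 CPM in MDA-MB-231, while KLF15 is seen only in MDA-MB-231, apart from 1 count in HCC70.

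Among the activators, KLF6, a broadly expressed growth-restraining factor, had the highest level and the most even response. It measured 180, 168 and 168 CPM in HCC70 vehicle libraries 1 to 3 and 315, 308 and 303 CPM with dexamethasone. In MDA-MB-231 the values were 201, 202 and 208 CPM in vehicle and 375, 358 and 367 CPM with dexamethasone. Treated and vehicle libraries were clearly separated in both lines. The rise was 1.8-fold in each line (log2 fold change 0.85 ± 0.053, SE, in both; edgeR adjusted p = 3.84e-07 and 6.61e-08). The tested difference between the 2 responses was near 0, with a 95% interval of -0.16 to 0.16 on the log2 scale.

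KLF5 had a 4.2-fold higher vehicle level in HCC70 and rose in both lines. In HCC70 it measured 108, 98.1 and 98.7 CPM in vehicle and 144, 147 and 150 CPM with dexamethasone, a 1.44-fold rise (log2 0.53 ± 0.06, edgeR adjusted p = 0.000129). MDA-MB-231 libraries held 23.5, 25.2 and 24.1 CPM in vehicle and 39.3, 36.5 and 40.5 CPM with dexamethasone, a 1.6-fold rise (0.68 ± 0.061, adjusted p = 3e-06). Treated and vehicle libraries did not overlap in either line, and every HCC70 library stood above every MDA-MB-231 library. KLF4, which often acts against KLF5 in epithelial cells, started lower in HCC70. Its HCC70 libraries held 19.4, 20.2 and 19.1 CPM in vehicle and 30.9, 29.8 and 25.9 CPM with dexamethasone (1.48-fold, log2 0.56 ± 0.097, adjusted p = 0.00389). In MDA-MB-231, KLF4 measured 44.9, 36.5 and 34.8 CPM in vehicle and 57.6, 62.3 and 53.3 CPM with dexamethasone (1.49-fold, log2 0.58 ± 0.095, adjusted p = 0.000875). Again the treated libraries were all above the vehicle libraries. Neither response differed between the lines past the threshold: the difference (HCC70 minus MDA-MB-231) had a 95% interval of -0.31 to 0.28 for KLF4 (adjusted p = 0.989) and of -0.33 to 0.04 for KLF5 (adjusted p = 0.271).

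KLF2, a factor best known for keeping endothelial cells and lymphocytes quiescent, was the single member that fell. In MDA-MB-231 it measured 18.7, 14.2 and 9.75 CPM in vehicle libraries 1 to 3 and 4.85, 7.2 and 5.33 CPM with dexamethasone. The vehicle libraries were widely spread but did not overlap the treated ones, and KLF2 fell 2.46-fold (log2 fold change -1.30 ± 0.22, edgeR adjusted p = 0.0019). HCC70 libraries held only 0.948, 0.774 and 0.661 CPM in vehicle and 0.903, 1.08 and 0.919 CPM with dexamethasone, groups that overlapped (log2 0.28 ± 0.29, adjusted p = 0.636). The responses differed by 1.58 ± 0.36 on the log2 scale (HCC70 minus MDA-MB-231, adjusted p = 0.0183). That call was lost with limma voom (0.0621), without HCC70 vehicle replicate 2 (0.0511) and without HCC70 dexamethasone replicate 2 (0.0509). KLF2 has a GC content of 65.2%, the highest of the members. In both MDA-MB-231 groups its values fall in the same order as those libraries' GC correlations. In HCC70 vehicle they run in the opposite order, and in HCC70 dexamethasone in neither. Whether GC trends contribute was not tested. With an offset that removes GC and length trends the MDA-MB-231 log2 fold change was -0.89 (adjusted p = 3.84e-05), the HCC70 value -0.01 (adjusted p = 0.989) and the difference 0.87 (adjusted p = 0.00925).

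KLF9 led the members that bind SIN3A. This factor is an immediate target of glucocorticoid and thyroid hormone receptors in other cell types. In HCC70 it measured 21.2, 19.9 and 21.4 CPM in vehicle and 72.4, 72.1 and 69.3 CPM with dexamethasone, a 3.42-fold rise. MDA-MB-231 libraries held 1.61, 2.79 and 2.13 CPM in vehicle and 39.3, 41.8 and 41.6 CPM with dexamethasone, an 18.8-fold rise. The groups were far apart in both lines relative to the spread within them (log2 fold changes 1.77 ± 0.12 and 4.23 ± 0.14, edgeR adjusted p = 2.34e-06 and 3.81e-10). The response was larger in MDA-MB-231 (HCC70 minus MDA-MB-231, -2.45 ± 0.18 on the log2 scale, adjusted p = 1.81e-06). In vehicle KLF9 was 9.55-fold higher in HCC70, and with dexamethasone the means were 71.3 ± 1.7 CPM in HCC70 and 40.9 ± 1.4 CPM in MDA-MB-231, with no overlap of libraries.

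KLF13, a factor known for inducing the chemokine RANTES in T cells, also responded more in MDA-MB-231. HCC70 libraries held 73.5, 74.1 and 75.4 CPM in vehicle and 93.3, 96.2 and 97.1 CPM with dexamethasone. In MDA-MB-231 it measured 22.3, 21.9 and 19.5 CPM in vehicle and 58.4, 70.7 and 68.4 CPM with dexamethasone. Treated libraries were above all vehicle libraries in both lines, by 1.29-fold in HCC70 (log2 0.36 ± 0.072, edgeR adjusted p = 0.0112) and 3.1-fold in MDA-MB-231 (1.63 ± 0.075, adjusted p = 2.47e-09). The difference of the responses was -1.27 ± 0.1 (adjusted p = 2.64e-06). The call in HCC70 was not firm: it was lost without HCC70 vehicle replicate 1 (0.0649) or 2 (0.055) and without HCC70 dexamethasone replicate 2 (0.0534) or 3 (0.0559). KLF13 has a GC content of 57.6%, and with the GC and length offset its HCC70 log2 fold change was 0.19 (adjusted p = 0.0392) and its MDA-MB-231 value 1.83.

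KLF10 and KLF11, both known as early genes induced by TGF-beta, had small fold changes. KLF11 measured 18.3, 19.2 and 17.7 CPM in HCC70 vehicle and 23.1, 22.4 and 22.5 CPM with dexamethasone, a 1.23-fold rise (log2 0.30 ± 0.065, edgeR adjusted p = 0.0169). In MDA-MB-231 its values were 14.1, 16.2 and 15.6 CPM in vehicle and 13.9, 13.2 and 13.5 CPM with dexamethasone (log2 -0.18 ± 0.065, adjusted p = 0.0827). The groups did not overlap in either line, with treated libraries above vehicle in HCC70 and below in MDA-MB-231. The responses differed by 0.48 ± 0.092 (adjusted p = 0.00453). The HCC70 call was lost without HCC70 vehicle replicate 1 (0.0817) or 3 (0.068), without HCC70 dexamethasone replicate 1 (0.105), 2 (0.0595) or 3 (0.0603), and when libraries were scaled by library size only (0.138). In MDA-MB-231, KLF11 passed without MDA-MB-231 vehicle replicate 1 (log2 -0.23, adjusted p = 0.0382) and with the GC and length offset (-0.22, adjusted p = 0.00881).

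The log2 fold change of KLF10 was 0.16 ± 0.057 in HCC70, from 51.2 ± 2.4 to 57.2 ± 0.82 CPM (edgeR adjusted p = 0.15). In MDA-MB-231 it was -0.14 ± 0.057, from 42.8 ± 1.7 to 38.9 ± 1.5 CPM (adjusted p = 0.115). Neither passed, although the treated and vehicle libraries did not overlap in either line; with the GC and length offset both passed, at 0.21 (adjusted p = 0.0042) and -0.19 (adjusted p = 0.00399). Its difference of responses passed at 0.30 ± 0.08 (adjusted p = 0.0285), and at 0.40 (adjusted p = 0.000208) with the GC and length offset. Without that offset the call depended on the scaling and on single libraries. It was lost with upper quartile scaling (log2 0.26, adjusted p = 0.0607) and with library size only (0.19, adjusted p = 0.234), and adjusted p ran from 0.0517 to 0.0899 without HCC70 vehicle replicate 1 or 3, any 1 HCC70 dexamethasone library, MDA-MB-231 vehicle replicate 2 or any 1 MDA-MB-231 dexamethasone library.

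KLF3, the CtBP-recruiting repressor of the set, passed the test in MDA-MB-231 and not in HCC70. It measured 23.7, 26.4 and 25.3 CPM in MDA-MB-231 vehicle and 31, 29.2 and 30.1 CPM with dexamethasone, a 1.2-fold rise (log2 0.26 ± 0.062, edgeR adjusted p = 0.0125). That call was lost without MDA-MB-231 dexamethasone replicate 1 (0.0563). In HCC70 the vehicle values of 54, 47.9 and 51.3 CPM overlapped the treated values of 52.7, 55.8 and 53.7 CPM (log2 0.08 ± 0.062, adjusted p = 0.496). The difference between the lines did not pass (95% interval -0.36 to 0.01, adjusted p = 0.194). KLF3 shares 266 exon bases with the antisense gene KLF3-AS1 and KLF11 416 with AC104794.4; libraries were not stranded, so reads from these stretches (4.22% and 9.07% of the exon length) cannot be assigned to one gene.

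KLF15, an activator of amino acid breakdown and gluconeogenesis genes in liver and muscle, was seen almost only in MDA-MB-231. It had 178, 137 and 120 counts in the vehicle libraries (1.49, 1.07 and 1.05 CPM) and 1033, 1285 and 1117 counts with dexamethasone (7.91, 10.4 and 8.65 CPM). The treated libraries were all far above the vehicle libraries, and the rise was 7.45-fold (log2 2.90 ± 0.17, edgeR adjusted p = 2e-07). KLF15 has a GC content of 60.5%, and within each MDA-MB-231 group its CPM fall in the same order as the libraries' GC correlations. With the GC and length offset the log2 fold change was 3.13 (adjusted p = 2.09e-10). HCC70 had 0 counts in all 3 vehicle libraries and 1 count in a single dexamethasone library. A group count of 0 allows up to 3 counts, or 0.00865 CPM in HCC70 vehicle, a limit that covers counting error only. Against that limit KLF15 was at least 139-fold lower in HCC70 than in MDA-MB-231 vehicle, given with no test since the gene passed the filter through MDA-MB-231 only, and no response can be measured in HCC70 at this depth.

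**Figure D2:**
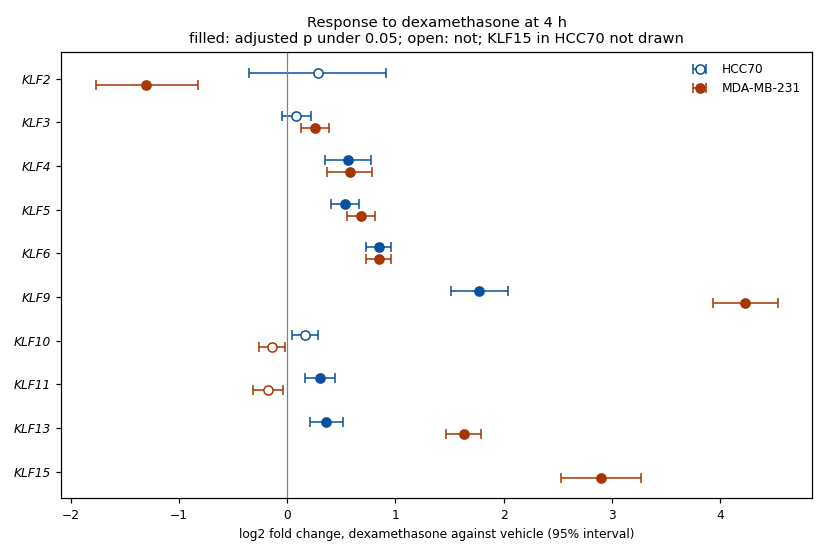
Response of each member to dexamethasone (x axis, log2 fold change against vehicle with its 95% interval; colours, line; filled points passed the edgeR test). KLF6 lies at 0.85 in both lines, KLF9 moves from 1.77 in HCC70 to 4.23 in MDA-MB-231, and KLF2 is the one called fall, at -1.30.

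The difference of the responses was tested for each member directly. It passed for 5 of 10 members, 3 with a more positive response in HCC70 (KLF2, KLF10 and KLF11; background 6.96% of tested genes) and 2 with a more positive response in MDA-MB-231 (KLF9 and KLF13; background 5.09%). KLF3, KLF4, KLF5 and KLF6 had intervals that reached no farther than 0.36 from 0 on the log2 scale. For KLF15 the difference could not be estimated, since HCC70 had 1 count in 6 libraries. Over the 9 other members the median difference was -0.01, the same as over all tested genes.

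**Figure D3:**
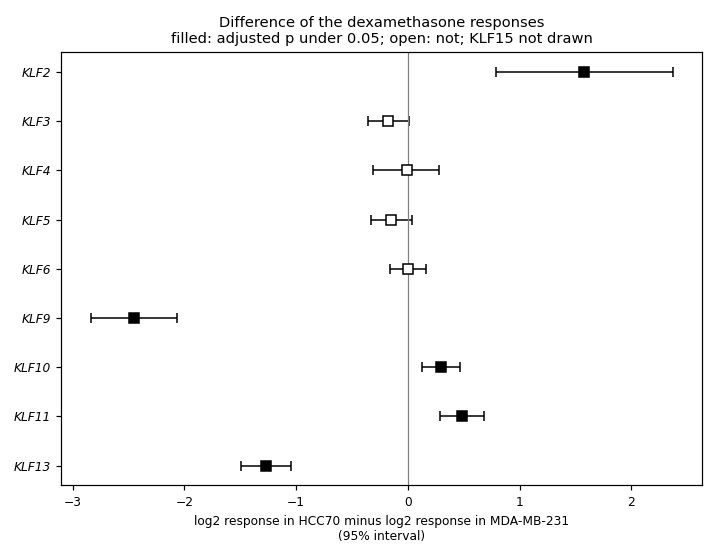
Difference between the lines in the dexamethasone response of 9 members (x axis, HCC70 minus MDA-MB-231, log2, with 95% interval; filled squares passed the edgeR test). KLF9 at -2.45 and KLF13 at -1.27 lie left of 0, KLF2 at 1.58 lies right of 0, and KLF6 sits at 0.

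Between the lines in vehicle, the 9 members other than KLF15 passed the test, 6 higher in HCC70 (background 39.2% of tested genes) and 3 lower (background 40%). KLF9 was 9.55-fold higher in HCC70, KLF5 4.2-fold, KLF13 3.5-fold and KLF3 2.03-fold. KLF11 and KLF10 were higher by only 1.2-fold and 1.19-fold. KLF2 was 17.9-fold lower in HCC70, KLF4 1.98-fold and KLF6 1.19-fold. KLF15, kept by the filter only through MDA-MB-231, is not counted here and is described by the limit given above. Adjusted p-values (edgeR) ran from 6.15e-13 for KLF5 to 0.00191 for KLF11, and the KLF11 call was lost when libraries were scaled by library size only (log2 0.18, adjusted p = 0.0578). In each of these 9 genes the 3 HCC70 libraries lay on one side of the 3 MDA-MB-231 libraries. The share of all tested genes separated in this way was not computed. Since most tested genes passed in this comparison, neither the count of members nor their separation is read as a result about them.

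To compare members with each other, CPM were divided by the exon length of each gene (CPM per kb, exon union of GENCODE v29). In HCC70 vehicle the order was KLF6 (28) and KLF5 (26.1), whose libraries overlapped, then KLF10 (12.8), KLF3 (8.11) and KLF13 (7.9), which overlapped, KLF4 (5.34), KLF9 (4.02) and KLF11 (4.01), which overlapped, and KLF2 (0.394). KLF6 also led in MDA-MB-231 vehicle (33.2), there followed at a distance by KLF10 (10.7) and KLF4 (10.6), which overlapped, KLF2 (7.04) and KLF5 (6.23), which overlapped, KLF3 (3.99), KLF11 (3.34) and KLF13 (2.26). KLF15 (0.423) and KLF9 (0.42) came last, with overlapping libraries. After dexamethasone KLF9 stood in 4th place in HCC70 (13.8), just under KLF10 (14.3), and in 5th place in MDA-MB-231 (7.9). KLF6 stayed first in both, at 50.3 and 59.7 CPM per kb.

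**Figure D4:**
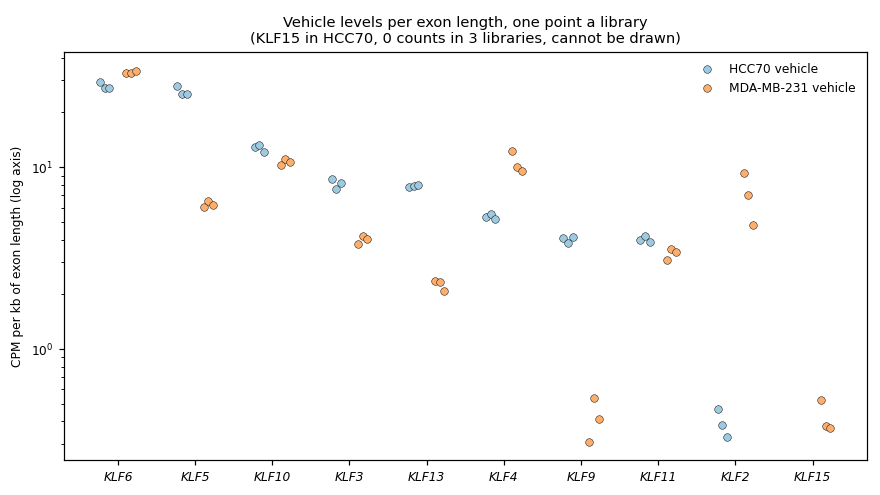
Vehicle levels of the members per exon length (y axis, CPM per kb, log axis; x axis, members in the order of their HCC70 level; 1 point a library; colours, line). KLF6 is the highest in both lines, KLF9 is at 4.02 in HCC70 and 0.42 in MDA-MB-231, and KLF15 in HCC70 has 0 counts and cannot be drawn.

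For the 5 members called in both lines, the 3 genes with the most similar profile were found among 14353 genes by the root mean square log2 difference over the 4 centred group means. All profiles share the same 12 libraries, and no test was made. The distance is not scaled to the size of a profile's changes, so its values do not compare between members. For KLF9 the nearest were FGD4 (0.528), TSC22D3 (0.549), which encodes the glucocorticoid-induced leucine zipper, and ACPL2 (0.648). KLF13 was nearest to C21orf63 (0.132), ITPKC (0.153) and FHDC1 (0.154). For KLF6 they were a transcript with a clone name (0.0991), the desmosomal gene PKP2 (0.105) and FRMD3 (0.118). KLF5 was nearest to the interleukin-36 receptor gene IL1RL2 (0.0878), TBC1D10A (0.0998) and FBXL16 (0.113), and KLF4 to RP11-401F24.4 (0.0901), the ubiquitin ligase gene HERC3 (0.0967) and PSORS1C1 (0.107).

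The table also holds 16 other genes of the KLF and SP families, which were not compared with the members by a test. Of these 16 genes, 12 passed the filter, 1 rose in HCC70 and 3 rose in MDA-MB-231, and none fell in either line. KLF14, KLF17 and SP5 had group means of 0.0175 CPM or less in HCC70, so no response could be measured there. Over all tested genes, 2.55% rose and 1.4% fell in HCC70, and 6.65% rose and 7.96% fell in MDA-MB-231. SP6, a factor of tooth and skin epithelium, rose in both, from 30.2 ± 2.6 to 74.3 ± 4 CPM in HCC70 (2.46-fold, edgeR adjusted p = 3.16e-05) and from 5.03 ± 0.73 to 12.8 ± 2.1 CPM in MDA-MB-231 (2.55-fold, adjusted p = 7.01e-06). KLF7, a close relative of KLF6, rose 4.07-fold in MDA-MB-231, from 5.12 ± 0.53 to 20.9 ± 0.5 CPM (adjusted p = 5.32e-10). In HCC70, KLF7 measured 14.2 ± 0.71 and 13.9 ± 0.39 CPM (adjusted p = 0.872), and the difference of its responses was -2.06 ± 0.11 (adjusted p = 4.38e-08). KLF8, a repressor that recruits CtBP, rose 1.67-fold from 1.05 ± 0.3 to 1.75 ± 0.19 CPM in MDA-MB-231 (adjusted p = 0.00579) and stood at 30.4 ± 0.9 CPM in HCC70 vehicle. The list's median log2 fold change was -0.09 in HCC70 and -0.05 in MDA-MB-231. Its HCC70 median keeps KLF14, KLF17 and SP5, whereas KLF15 was left out of the members' HCC70 median, so the 2 medians do not compare directly.

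None of 14 genes for KLF cofactors and ubiquitin ligases passed in either dexamethasone comparison or in the difference. In vehicle, 8 of them were higher and 5 lower in HCC70, where 39.2% and 40% of all tested genes were, so this count is not read as a result about the list. The largest distances were for SIAH1 (3.39-fold higher), WWP1, a ligase known to degrade KLF5 (2.62-fold higher), KAT2B (2.27-fold lower) and the deacetylase HDAC1 (2.19-fold higher). All 4 passed with an edgeR adjusted p of 1.6e-09 or less.

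Of 12 genes for upstream regulators of KLF genes, 2 rose and 0 fell in HCC70, where 2.55% of all tested genes rose and 1.4% fell. In MDA-MB-231, 1 of the 12 rose and 5 fell, where 6.65% of all tested genes rose and 7.96% fell. TGFBR2, a TGF-beta receptor, rose 1.41-fold from 35.1 ± 0.54 CPM in HCC70 (edgeR adjusted p = 0.000179) and 2.15-fold from 101 ± 6.3 CPM in MDA-MB-231 (adjusted p = 1.38e-08). SMAD3, which carries the TGF-beta signal to the nucleus, fell 1.74-fold in MDA-MB-231, from 185 ± 19 to 106 ± 6.5 CPM (adjusted p = 3.67e-06), and the receptor TGFBR1 fell 1.39-fold (adjusted p = 0.000187). The glucocorticoid receptor gene NR3C1 fell 1.41-fold in MDA-MB-231 (adjusted p = 0.000112). MEF2D, of a family known to drive KLF2 and KLF4, rose 1.49-fold in HCC70 (adjusted p = 0.00272). It fell in MDA-MB-231, by 0.33 on the log2 scale (adjusted p = 0.0324), with treated and vehicle libraries that overlapped. MEF2A fell there by 0.27 (adjusted p = 0.0147).

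Of 11 genes of amino acid catabolism and muscle wasting linked to KLF15 in other tissues, 10 passed the filter. Over all tested genes, 2.55% rose and 1.4% fell in HCC70, and 6.65% rose and 7.96% fell in MDA-MB-231. In HCC70, 2 genes of the list rose: the coactivator gene PPARGC1A (1.49-fold, edgeR adjusted p = 0.0202) and the ubiquitin ligase gene FBXO32 (1.33-fold, adjusted p = 0.00562). In MDA-MB-231, PPARGC1A rose 2.09-fold from 2.38 ± 0.21 CPM (adjusted p = 2.1e-05) and the proline oxidase gene PRODH 2.63-fold from 0.203 ± 0.058 CPM (adjusted p = 0.00747), while the alanine transaminase gene GPT2 fell 1.29-fold (adjusted p = 0.0273). The median log2 fold change of this list was 0.18 in HCC70 and 0.17 in MDA-MB-231. The HCC70 median keeps AASS and TRIM63, which had group means of 0.0114 CPM or less there.

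**Figure D5:**
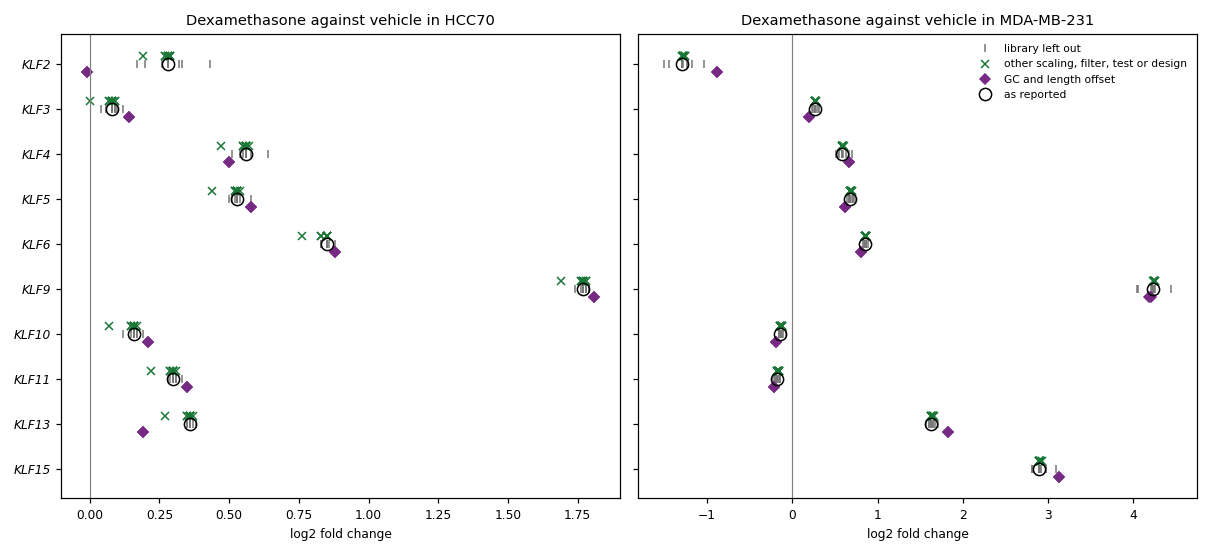
Log2 fold change of each member with dexamethasone (x axis) as reported (circles), with 1 or 2 libraries left out (grey ticks), under other scalings, filters, tests or designs (crosses) and with a GC and length offset (diamonds), in HCC70 and MDA-MB-231. The offset moves KLF13 in HCC70 from 0.36 to 0.19 and KLF2 in MDA-MB-231 from -1.30 to -0.89, and the values for KLF6 stay close to 0.85 except at 0.76 with library size only in HCC70.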

How the data were processed

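The authors deposited whole-number counts per gene for 12 libraries, not scaled between libraries. Non-stranded polyA libraries were made with a transposase and sequenced as paired-end 50 bp reads, per the labels' protocols. The submitters' processing notes list the build hg19 and the tools TopHat 1.4.1, Cufflinks 1.3.0 and bedtools; which of them made the counts is not given in the sources used here.

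Libraries were grouped by line and treatment. Counts were scaled by TMM, filtered with filterByExpr (minimum count 10) and fitted in edgeR 4.0.16 (R 4.3.3; quasi-likelihood, robust, group means, 8 residual degrees of freedom), two-sided, with Benjamini-Hochberg adjustment over 28141 genes and a threshold of 0.05. SE were taken from the fold change and F statistic, and 95% intervals from the moderated t distribution. GC content and length (GENCODE v29, 89.8% of tested genes) and RefSeq promoters are on another build than hg19. Scripts were tested on simulated counts. Alternatives included DESeq2 1.42.0, limma 3.58.1 (voom), other scalings and filters, a replicate block, lines fitted alone, libraries left out and a GC and length offset.

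The members and lists were chosen with earlier results of these data known. Named are all members, up to 4 called genes with the largest change per list and comparison, the 3 nearest profiles (mean log2 CPM of at least 1) and treatment checks; not all are printed.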

Additional observations from a re-analysis of the deposited data

Results flagged for a closer look

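These genes are listed because their dexamethasone responses differed between the lines in a test of the difference itself (edgeR, log2 response in HCC70 minus that in MDA-MB-231, adjusted p under 0.05, 3 libraries a group). Among the Krüppel-like factors described above the values were 1.58 for KLF2, -2.45 for KLF9, 0.30 for KLF10, 0.48 for KLF11 and -1.27 for KLF13. KLF2 and KLF13 are GC-rich, and with a GC and length offset their differences were 0.87 and -1.64. The values that follow, for genes of the other lists, are without that offset. Whether the libraries' GC trends contribute to them was not tested. Among the other KLF and SP factors they were -2.06 for KLF7, -0.87 for KLF8 and 1.08 for KLF16. For upstream regulators the differences were 0.90 for MEF2D, 0.38 for NR3C1, 1.00 for SMAD3, 0.61 for TGFBR1 and -0.60 for TGFBR2. Genes linked to KLF15 gave 0.42 for FBXO32 and 0.55 for GPT2. TGFBR2 and KLF9 rose in both lines, so their differences are of size and not of direction. MEF2D was called in opposite directions, but its treated and vehicle libraries overlapped in MDA-MB-231. KLF16 was called in neither line (edgeR adjusted p = 0.107 in HCC70 and 0.144 in MDA-MB-231), and its libraries also overlapped in MDA-MB-231.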

How the results depend on the processing

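Over the members' log2 fold changes, 916 values were computed under the alternatives. Of these, 858 kept direction and side of the threshold, 31 lost the call, 10 gained it and 17 changed sign. Each change of sign concerned a value that had not passed. KLF3 in HCC70 was -0.00 with library size only, and KLF2 in HCC70 was -0.01 with the GC and length offset, alone or with the replicate block. The difference of responses became 0.07 for KLF6 with that offset, alone or with the block, and with 1 library left out it ran from -0.04 to 0.03 for KLF6 and from -0.14 to 0.06 for KLF4. The calls of KLF4, KLF5, KLF6 and KLF9 in both lines, and of KLF2, KLF13 and KLF15 in MDA-MB-231, held under every alternative that tested them. The cause of the changes was not tested.

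Members that fell in MDA-MB-231 numbered 2 without MDA-MB-231 vehicle 1 and dexamethasone 2, 3 with the GC and length offset and 3 with the offset and block (1 as reported), and 1 to 2 with 1 library left out. Over all tested genes, 3306 of 28564 fell without those 2 libraries. Of 28141 genes, 2756 fell with the offset, 2293 with offset and block and 2240 as reported. With 1 library left out, 1248 to 3554 fell. Members with a more positive response in HCC70 numbered 1 to 3 (3 as reported), with 1 when HCC70 dexamethasone replicate 2 was left out. Over all tested genes that number was 1960 of 28141 as reported and 1225 of 28761 without that library.

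Deviations from the group mean in same-numbered libraries had correlations of -0.0342, 0.00896 and -0.017 in HCC70. In MDA-MB-231 the correlations were -0.158, -0.101 and 0.0934. With 3 libraries a group, these values cannot show whether same-numbered libraries were prepared together, and the labels do not say. With the replicate block the adjusted p was 0.1 for KLF11 and 0.0762 for KLF13 in HCC70 (log2 0.30 and 0.36), 0.0698 for KLF3 in MDA-MB-231 (log2 0.26) and 0.0972 for the KLF10 difference (log2 0.30), and with block and offset 0.0727 for KLF13 in HCC70 (log2 0.19). Under the block 481 genes of the whole table were called in HCC70, 2551 in MDA-MB-231 and 1480 for the difference.

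Without the block, 1114 genes were called in HCC70. That number was 1679 with DESeq2, 4828 with HCC70 fitted alone, 3867 without the 2 MDA-MB-231 libraries named above, 2007 with the GC and length offset, and 510 to 1775 with 1 library left out. For MDA-MB-231 it was 4110, against 2116 with the line fitted alone and 2424 to 6452 with 1 library left out. The difference gave 3391 genes, 6206 without the 2 libraries and 1614 to 6259 with 1 left out. In vehicle 22294 genes were called, and 11980 under the strict filter of 5 CPM, which tests fewer genes. Scaling by library size only moved the median of all genes to -0.10 in HCC70 and to -0.13 for the difference, and the share of calls that rose in HCC70 from 64.5% to 42%; for the difference, the share more positive in HCC70 went from 57.8% to 41.4%. A fit of single lines gives no difference of responses.

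At this depth all members except KLF15 in HCC70 had at least 77 counts in every library, and the intervals for KLF2 in HCC70 (-0.35 to 0.91) remain wide.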

Other observations

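KLF7-IT1, a separate entry of the table named for its place within KLF7, had 59, 64 and 52 counts in the MDA-MB-231 dexamethasone libraries and 10, 15 and 10 in vehicle (log2 fold change 2.23 ± 0.38, edgeR adjusted p = 0.00105). In HCC70 it had 50, 18 and 40 counts with dexamethasone and 55, 24 and 34 in vehicle (adjusted p = 1). Reads of KLF7-IT1 and of unspliced KLF7 RNA cannot be told apart in these counts. The pseudogene entry KLF3P1 had 28 to 47 counts with dexamethasone and 48 to 71 in vehicle in MDA-MB-231 (adjusted p = 0.0648), while KLF3 itself rose there. These entries were looked at after their values were seen.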
